A study of Homo sapiens with 4 samples.

Results

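The genes described here are 47 nuclear genes that build and run the mitochondrion: its protein import channels, cristae, fusion and fission machinery, matrix proteases and mitochondrial DNA upkeep. They were chosen by symbol, with earlier results of these data known, and each of the 47 symbols was found among the 40205 genes listed. All 47 had an RPKM (read numbers corrected for gene length and library size) of at least 1 in at least 2 libraries, which placed them among the 13885 genes tested. For description they were sorted into 8 roles, from the outer membrane inward.

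The study silenced circZFR, a circular RNA joined from exons of *ZFR*, and asked how mRNA levels changed. There were 4 libraries of total RNA from a human lung cancer line, 2 from cells given a negative control (NC 1 and NC 2) and 2 from cells given siRNA to circZFR (si-circZFR 1 and si-circZFR 2), all by transfection for 24 h. The sample labels name the line H1299, whereas the design text and the methods name A549, a lung adenocarcinoma line. *AKR1B10*, an aldo-keto reductase that is abundant in A549, lay between 1296 and 1677 RPKM after scaling in the 4 libraries. *KRT8* and *KRT18*, keratins of simple epithelia, lay between 735 and 1786. The fibrinogen genes *FGA*, *FGB* and *FGG*, listed with them as markers of A549 or lung epithelium, were low. They lay between 0.775 and 3.31 in the NC libraries. Which of the 2 lines was used was not tested. Nothing in the labels says whether the libraries of a group came from separate cultures, so p-values measure the spread between these libraries, which may be technical. The siRNA listed for circZFR is shown because it is the only treatment that separates the groups. Capitals mark positions 12 to 18 of the sense strand, the bases that pair with bases 2 to 8 of the guide strand.

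si-circZFR sense strand: ccaagcuggccCUUACGUctt

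Almost all mitochondrial proteins are made in the cytosol and have to be imported. Receptors and the channel of the outer membrane complex (TOM) admit them, small chaperones carry them across the intermembrane space, and inner membrane translocases (TIM) with an ATP-driven motor draw them into the matrix, where proteases remove their targeting sequences and clear damaged proteins. The same organelle fuses and divides through dynamin-like GTPases, folds its inner membrane into cristae and keeps its own small genome, which encodes core subunits of oxidative phosphorylation.

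The recovered totals ran from 11040050 to 12816868 reads per library, and 97.9% to 98.3% of them lay on listed genes. RPKM values were made comparable between libraries by dividing them by factors of 0.904 (NC 2) to 1.11 (si-circZFR 2). The host gene *ZFR* had 26.0 and 31.9 scaled RPKM in the NC libraries and 5.25 and 4.63 in the si-circZFR libraries. This was a fall with a log2FC of -2.33 (standard error, SE, of 0.17 and limma FDR 0.0388). Circular and linear reads are not separated in these values. The paper, by contrast, reports from RT-PCR that the siRNA left *ZFR* mRNA without a detectable change in A549. The part of linear *ZFR* mRNA in the fall seen here was not tested. Of the markers of other cell types, the leukocyte gene *PTPRC* was listed at 0 in every library, the endothelial *PECAM1* had 3 reads over the 4 libraries, the collagen *COL3A1* had 6, and the lysosomal gene *CD68* had 79.3 and 81.1 scaled RPKM in the NC libraries and 78.2 and 55.1 in the si-circZFR libraries. Some markers moved with the groups. The collagen *COL1A1* had 0.877 and 0.612 scaled RPKM in the NC libraries and 1.34 and 1.89 in the si-circZFR libraries. Of the epithelial adhesion genes, *EPCAM* had 0.397 and 0.402 against 1.83 and 2.66, from 27 recovered reads in all, a lower bound. *CDH1* had 11.4 and 8.52 against 21.7 and 21.3. The fibrinogen genes *FGA*, *FGB* and *FGG* were at 1.89, 2.12 and 2.21 times their NC means. Of the listed markers only these and the keratins had both si-circZFR libraries above both NC libraries, and their part in the results for the 47 genes was not tested.

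By limma on log2(scaled RPKM + 1), none of the 47 genes passed an FDR under 0.05 with a |log2FC| over 1. Only 8 of the 13885 genes tested did (0.0576%). At an unadjusted p under 0.05, 16 of the 47 were lower in si-circZFR (34.0%, against 11.5% of all genes tested) and 3 were higher (6.38%, against 10.1%). By limma-voom on reads recovered from the RPKM values, 4 of the 47 passed (8.51%, against 2%): *TOMM20* and *TOMM34* lower, *MFN1* and *LONP1* higher. Over the 13 alternatives run, the FDR of *TOMM20*, *MFN1* and *LONP1* ran from 0.0212, 0.0276 and 0.0357 up to 0.625, and that of *TOMM34* from 0.0432 to 0.641; the highest came without si-circZFR 2, where the lone si-circZFR library is assumed to vary like the NC libraries.

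The log2FC was below 0 for 35 of the 47 genes (74.5%, against 49.4% of all genes tested), with a median of -0.38 against 0.01 for all genes tested. With the values as deposited and no scaling, 29 of the 47 were below 0, with a median of -0.21 against 0.15 for all genes tested. The share of all genes tested below 0 was not counted without scaling. Both si-circZFR libraries lay below both NC libraries for 27 genes (57.4%, against 28.1%) and above both for 4 genes (8.51%, against 28.1%), namely *MFN1*, *LONP1*, *OPA1* and *POLRMT*. The groups overlapped for the other genes. An exact permutation test of 2 against 2 libraries cannot give a p under 0.333 for a single gene.

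**Figure D1:**
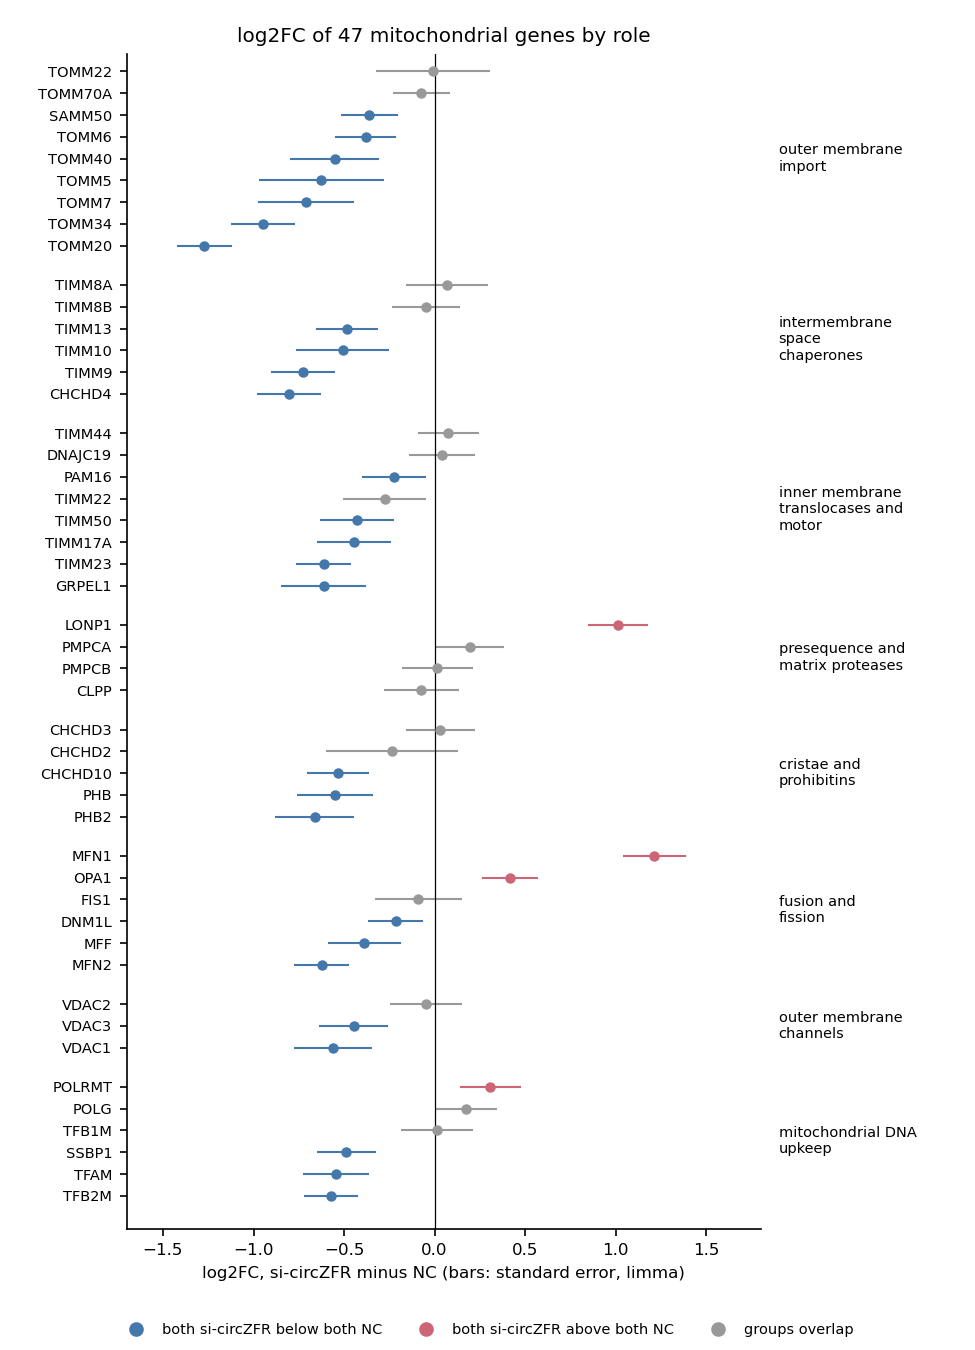
Difference of log2(scaled RPKM + 1), si-circZFR minus NC, on the horizontal axis for the 47 genes sorted by role, with bars for the standard error from limma and colours for the position of the 2 si-circZFR libraries relative to the 2 NC libraries. Most points lie left of 0, from TOMM20 at -1.27, while MFN1 at 1.21 and LONP1 at 1.01 lie farthest to the right.

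The size of the difference depended on the NC library. The median of the 47 genes was higher by 0.31 (log2) in NC 2 than in NC 1, and only 8 of the 47 were lower there. Between single libraries, the median was -0.16 for si-circZFR 1 minus NC 1 (29 of 47 genes below 0) and -0.27 for si-circZFR 2 minus NC 1 (27 of 47). Against NC 2 it was -0.53 for each si-circZFR library, with 42 and 37 genes below 0. The 2 si-circZFR libraries differed from each other by a median of 0.03. Over all genes tested, each of these 6 medians was within 0.01 of 0. Without NC 2, the median of the 47 genes was -0.25, with 28 genes below 0.

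**Figure D2:**
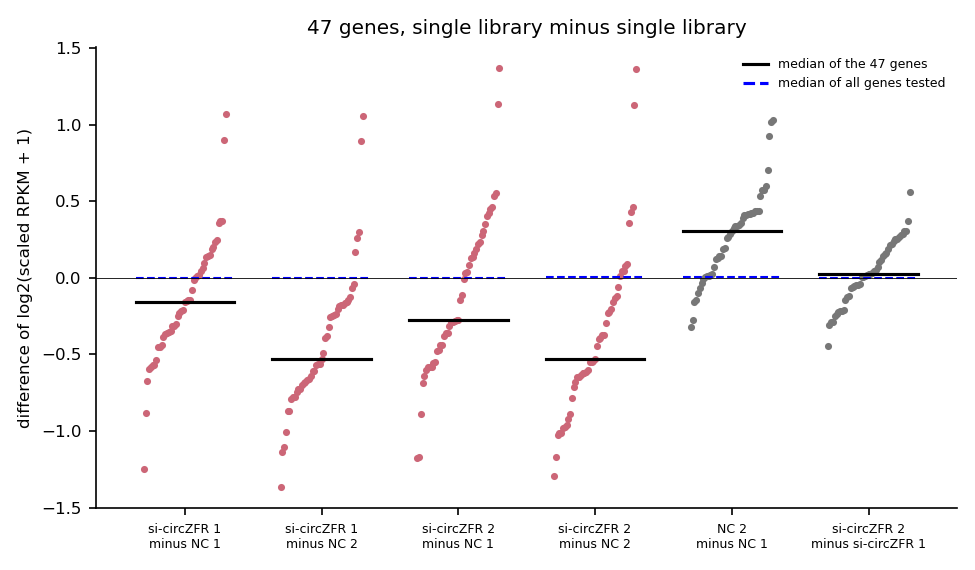
Each point is 1 of the 47 genes, and the vertical axis is the difference of log2(scaled RPKM + 1) between 2 single libraries named below it; black lines are medians of the 47 genes and dashed lines medians of all genes tested. The medians are -0.53 in both comparisons with NC 2, -0.16 and -0.27 in those with NC 1, and 0.31 between the NC libraries.

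Gene length, taken as the smallest length that fits the RPKM values, moved with the log2FC as well. Such a length can be too short by a whole factor. Spearman's rho between log2FC and gene length was 0.304 across the 47 genes and 0.290 across all genes tested; the points share the same 4 libraries, and between NC 2 and NC 1 the rho values were -0.334 and -0.337. The 8 genes shorter than 1000 bases had a median log2FC of -0.52, against -0.29 for all 2139 genes tested of that length. The 21 genes of 1000 to under 2000 bases had a median of -0.45, against -0.12. The 18 genes of 2000 bases or more had a median of -0.03, against 0.08, and this class holds *TOMM20* and *TOMM34* as well as all 4 genes that lay above. With length and GC content corrected for by smoothing, the median over the 47 genes was -0.21 and 31 were below 0, of which 27 were also below 0 without it. By this correction 8 genes turned from below to above 0, and 4 turned the other way. The part of library and length in the lower levels was not tested further.

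**Figure D3:**
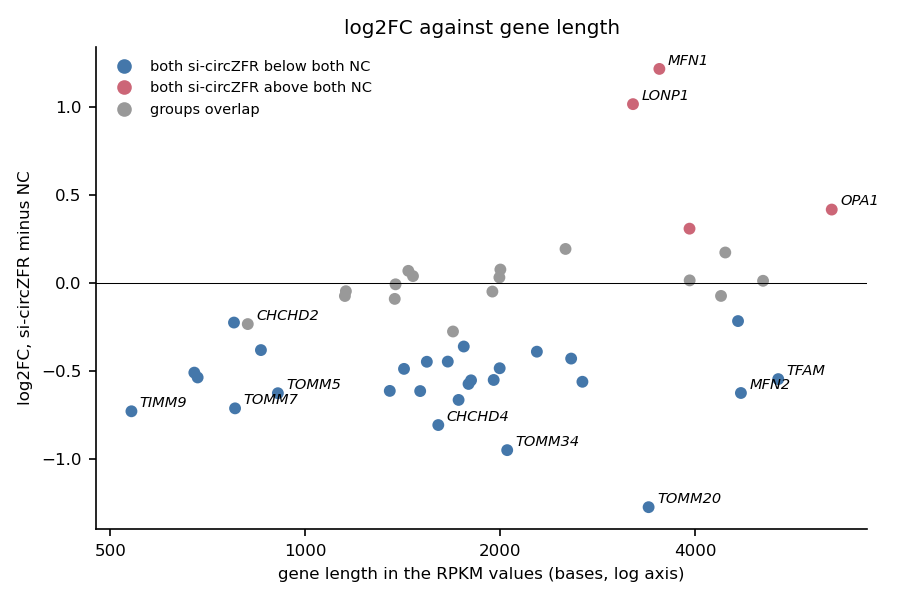
Gene length in bases (smallest that fits the RPKM values, log axis) against log2FC, si-circZFR minus NC, for the 47 genes, coloured by the position of the si-circZFR libraries relative to the NC libraries. Genes under 1000 bases all lie below 0, while the longest genes lie on both sides, with MFN1, LONP1 and OPA1 above and TOMM20, TOMM34, MFN2 and TFAM below.

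The promoters of 4 genes that the results turn on are shown, the 3 with the smallest p, *TOMM20*, *MFN1* and *LONP1*, and *MFN2*, the partner of *MFN1*. Each is a sequence of 250 bases before to 50 after the RefSeq start (GRCh38.p14), read on the gene's own strand. The windows are chr1:235128788-235129087 (minus) for *TOMM20*, chr3:179347459-179347758 (plus) for *MFN1*, chr1:11980194-11980493 (plus) for *MFN2* and chr19:5720097-5720396 (minus) for *LONP1*. For *MFN2* and *LONP1* this start differs from the gene start in GENCODE given below, and both windows lie within the GENCODE gene. Capitals mark the cores of motifs for factors known to serve nuclear genes of mitochondria, on either strand: GCGCANGCG for NRF-1, CCGGAAG for the ETS family with GABP, and ATGGCGGC for YY1.

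TOMM20: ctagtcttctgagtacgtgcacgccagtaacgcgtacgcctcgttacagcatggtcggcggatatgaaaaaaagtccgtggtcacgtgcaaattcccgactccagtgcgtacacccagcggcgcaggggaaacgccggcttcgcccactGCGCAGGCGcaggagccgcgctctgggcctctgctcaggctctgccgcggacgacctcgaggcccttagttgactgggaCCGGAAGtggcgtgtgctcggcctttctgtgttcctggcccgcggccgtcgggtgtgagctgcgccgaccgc

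MFN1: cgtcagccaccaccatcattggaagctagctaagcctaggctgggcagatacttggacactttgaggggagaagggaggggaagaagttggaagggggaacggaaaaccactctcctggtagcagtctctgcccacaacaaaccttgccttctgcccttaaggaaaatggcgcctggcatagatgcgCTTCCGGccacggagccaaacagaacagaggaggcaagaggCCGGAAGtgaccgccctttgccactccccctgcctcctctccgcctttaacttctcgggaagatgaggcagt

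MFN2: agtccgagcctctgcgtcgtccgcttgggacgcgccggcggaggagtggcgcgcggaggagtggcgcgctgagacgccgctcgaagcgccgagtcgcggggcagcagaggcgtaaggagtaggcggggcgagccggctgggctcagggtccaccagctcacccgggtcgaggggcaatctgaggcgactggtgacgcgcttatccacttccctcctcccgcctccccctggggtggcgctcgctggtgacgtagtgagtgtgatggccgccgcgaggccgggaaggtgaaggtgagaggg

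LONP1: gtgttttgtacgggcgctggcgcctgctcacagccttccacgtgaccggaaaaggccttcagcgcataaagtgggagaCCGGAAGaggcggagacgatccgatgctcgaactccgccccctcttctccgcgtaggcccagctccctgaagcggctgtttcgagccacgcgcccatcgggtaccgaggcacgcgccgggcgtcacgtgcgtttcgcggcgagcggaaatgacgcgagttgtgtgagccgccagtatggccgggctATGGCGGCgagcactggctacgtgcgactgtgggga

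The *TOMM20* window holds 1 NRF-1 core at base 150 and 1 ETS core at base 229. The *MFN1* window holds 2 ETS cores at bases 188 and 229, the *LONP1* window 1 ETS core at base 79 and 1 YY1 core at base 265, and the *MFN2* window holds none of these letters. Promoters were found for 42 of the 47 genes. The NRF-1 core lay in 14 of them (33.3%, against 8.05% of all 27305 promoters and 15.8% of the 9375 promoters of genes tested), the ETS core in 17 (40.5%, against 10.7% and 20.2%) and the YY1 core in 6 (14.3%, against 3.21% and 6.77%). TGATGCAA, a core of the composite element read by ATF4, lay in 2 (4.76%, against 0.923% and 0.405%), and TGACGTCA, the cAMP response element, in 0 (against 1.98% and 3.38%). The median log2FC of the 14 genes with an NRF-1 core was -0.55, and that of the 28 without it -0.22. The other cores went the opposite way, with medians of -0.23 with and -0.39 without the ETS core, and 0.05 with and -0.42 without the YY1 core. Over all promoters of genes tested, the medians with and without the NRF-1 core were 0.02 and 0.03. For the ETS core they were 0.003 and 0.03, and for the YY1 core -0.02 and 0.03. These are letters in a window, and binding was not measured.

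In outer membrane import, all 9 genes had a log2FC below 0, with a median of -0.55. Without scaling, *TOMM22* and *TOMM70A* were at 0.15 and 0.09, where the median of all genes tested was 0.15. Both si-circZFR libraries lay below both NC libraries for 7 of them, and the groups overlapped for *TOMM22* and *TOMM70A*. *TOMM20* (ENSG00000173726.11) lies on chromosome 1 from 235109341 to 235128837 on the minus strand and encodes a receptor that binds presequences of incoming proteins. It had 32.6 and 35.5 scaled RPKM in the NC libraries and 13.1 and 13.9 in the si-circZFR libraries. The groups stood well apart, at 34.0 ± 2.08 and 13.5 ± 0.516 (SD, n = 2 each), and the log2FC of -1.27 (SE 0.15, limma FDR 0.0661) was the lowest of the 47 genes. With NC 1, NC 2, si-circZFR 1 or si-circZFR 2 left out, the log2FC of *TOMM20* ran from -1.33 to -1.21.

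*TOMM34* (chromosome 20, 44942130 to 44960397, minus strand) encodes a cytosolic cochaperone that escorts precursor proteins to the outer membrane. It had 17.4 and 15.5 scaled RPKM in the NC libraries and 8.98 and 7.18 in the si-circZFR libraries, with a log2FC of -0.95 (SE 0.18, limma FDR 0.082). Both si-circZFR libraries again lay well below both controls. The small TOM subunits looked different. *TOMM5* (chromosome 9, 37582646 to 37592604), the highest of the role, had 86.0 and 176.4 in the NC libraries and 81.5 and 77.7 in the si-circZFR libraries, so that NC 2 alone stood high. Its log2FC was -0.62 with all libraries (SE 0.35, limma FDR 0.340), -0.11 without NC 2, -1.14 without NC 1 and -0.25 with length and GC content corrected for. *TOMM7*, another small subunit, likewise had 60.0 and 98.2 against 44.01 and 49.2, with a log2FC of -0.71 that was -0.36 without NC 2. The channel gene *TOMM40* had 67.4 and 102.5 against 60.9 and 52.3, with a log2FC of -0.55 that was -0.25 without NC 2. *SAMM50*, the core of the machinery that inserts barrel-shaped proteins, had 35.0 and 32.6 against 27.3 and 24.9. The receptor *TOMM70A* (now *TOMM70*) had 15.1 and 17.4 against 15.2 and 15.5, without separation.

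The ratio of 2 genes within a library needs no scaling between libraries. The RPKM of *TOMM20* was 2.16 and 2.04 times that of *TOMM70A* in the NC libraries, and 0.865 and 0.894 times in the si-circZFR libraries. In RPKM, the 2 receptors therefore exchanged their order, with *TOMM20* the higher in both NC libraries and the lower in both si-circZFR libraries.

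Among the 6 intermembrane space chaperones the median log2FC was -0.50, with 4 genes below and *TIMM8A* and *TIMM8B* overlapping. *CHCHD4* (chromosome 3, 14112077 to 14124870, minus strand), the oxidoreductase that traps cysteine-rich proteins by disulfide exchange, had 18.7 and 20.7 scaled RPKM in the NC libraries and 12.1 and 9.62 in the si-circZFR libraries. Its log2FC was -0.81 (SE 0.18, limma FDR 0.1004), -0.96 to -0.65 with single libraries left out and -0.61 with length and GC content corrected for. *TIMM9* (chromosome 14, 58408495 to 58427531), whose product is itself a substrate of CHCHD4 and joins TIMM10 in a chaperone ring, had 23.9 and 30.4 against 16.2 and 15.6, with a log2FC of -0.73 (SE 0.18, limma FDR 0.117). *TIMM9* is the shortest of the 47 genes by the smallest length that fits the RPKM values, 539 bases, but its GENCODE transcript has 1252. Its log2FC was -0.31 with length and GC content corrected for, and this value rests on the length of 539. *TIMM10* (chromosome 11, 57528464 to 57530803) had 35.3 and 48.0 against 23.4 and 35.0, and its groups nearly touched. Its log2FC was -0.51 with all libraries, -0.79 to -0.23 with single libraries left out and -0.08 with length and GC content corrected for. The second ring pair was split, since *TIMM13* had 14.96 and 18.5 against 11.8 and 11.4, while its partner *TIMM8A* had 3.96 and 5.63 against 4.30 and 5.83.

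Among the 8 inner membrane translocase and motor genes the median log2FC was -0.35, and 5 lay below. *TIMM23* (chromosome 10, 45972489 to 46003742, plus strand), the channel for proteins with a presequence, had 34.4 and 34.3 scaled RPKM in the NC libraries and 21.2 and 23.1 in the si-circZFR libraries. Here the controls were almost equal, and the log2FC of -0.61 (SE 0.15, limma FDR 0.120) was -0.67 to -0.55 with single libraries left out but -0.34 with length and GC content corrected for. *TIMM50* (chromosome 19, 39480412 to 39493785), the receptor of that channel, had 62.2 and 83.6 against 56.1 and 50.7, with a log2FC of -0.43 that was -0.22 without NC 2. *GRPEL1* (chromosome 4, 7058671 to 7068085), the nucleotide exchange factor of the import motor, had 20.6 and 31.2 against 17.6 and 14.9, with a log2FC of -0.61 (SE 0.23, limma FDR 0.213) that was -0.32 without NC 2 and -0.39 with length and GC content corrected for. The motor genes *TIMM44*, at 9.76 and 11.3 against 10.3 and 12.1, and *DNAJC19*, at 2.68 and 3.06 against 2.68 and 3.29, showed no separation. *TIMM22*, the channel for carrier proteins, overlapped between groups, and *TIMM17A* and *PAM16* lay below.

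Of the 4 presequence and matrix proteases, 1 lay above, *LONP1*, and the groups overlapped for the other 3, with a median log2FC of 0.10. *LONP1* (chromosome 19, 5691834 to 5720572, minus strand) encodes the ATP-dependent protease that clears oxidized and misfolded matrix proteins and binds mitochondrial DNA. It had 22.7 and 22.8 scaled RPKM in the NC libraries and 43.2 and 51.1 in the si-circZFR libraries. The controls were almost equal, both si-circZFR libraries were far above them, and the log2FC was 1.01 (SE 0.16, limma FDR 0.0812). The log2FC of *LONP1* was 0.90 to 1.13 with single libraries left out and 0.80 with length and GC content corrected for. *CLPP* (chromosome 19, 6361531 to 6370242), the other ATP-dependent matrix protease, had 34.4 and 46.5 against 41.0 and 35.1, with no separation. The ratio of *LONP1* to *CLPP* within a library was 0.660 and 0.490 in NC and 1.05 and 1.45 in si-circZFR. *PMPCA* and *PMPCB*, the subunits of the peptidase that removes presequences, overlapped between groups, with log2FC of 0.19 and 0.02.

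Of the 5 cristae and prohibitin genes, 3 lay below, with a median of -0.54. *PHB2* (chromosome 12, 6965327 to 6970780, minus strand), a prohibitin that forms inner membrane rings, had 153.6 and 194.1 scaled RPKM in the NC libraries and 120.2 and 98.3 in the si-circZFR libraries, with a log2FC of -0.66 (SE 0.22, limma FDR 0.174). Its partner *PHB* (now *PHB1*) moved alongside at 173.9 and 221.3 against 139.4 and 128.3, and the ratio of *PHB* to *PHB2* stayed within 1.13 to 1.30 in the 4 libraries. *CHCHD10* (chromosome 22, 23765834 to 23767972), a cristae-associated protein, had 64.1 and 61.1 against 46.7 and 39.4, with a log2FC of -0.54 (SE 0.17, limma FDR 0.168). Its paralog *CHCHD2* (chromosome 7, 56101573 to 56106476) was the most abundant of the 47 genes and had 179.2 and 363.5 against 198.7 and 237.2. NC 2 stood alone there, and the log2FC of -0.23 with all libraries was 0.28 without NC 2. *CHCHD3*, which holds cristae junctions together, had a log2FC of 0.03.

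The 6 fusion and fission genes split in direction. *MFN1* (chromosome 3, 179347709 to 179394936, plus strand) encodes one of the outer membrane GTPases that tether and fuse mitochondria. It had 4.92 and 4.96 scaled RPKM in the NC libraries and 11.4 and 14.3 in the si-circZFR libraries, from 203, 202, 460 and 616 reads. The groups were at 4.94 ± 0.0271 and 12.9 ± 2.05 (SD, n = 2 each), and the log2FC was 1.21 (SE 0.17, limma FDR 0.0759), the highest of the 47 genes, with 1.06 to 1.37 when single libraries were left out. *MFN2* (chromosome 1, 11980181 to 12015211, plus strand), the related GTPase that also links mitochondria to the endoplasmic reticulum, had 19.4 and 21.3 against 12.8 and 12.9. For this gene both si-circZFR libraries lay below, with a log2FC of -0.62 (SE 0.15, limma FDR 0.117), and -0.69 to -0.56 with single libraries left out.

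The RPKM ratio of *MFN1* to *MFN2* within a library was 0.254 and 0.233 in NC and 0.895 and 1.11 in si-circZFR. In RPKM, the mitofusin pair thus went from a clear excess of *MFN2* to near equality. Equality between 2 genes depends on the lengths used, here 3519 bases for *MFN1* and 4702 for *MFN2*, against 5212 and 4407 for the GENCODE transcripts. The change of the ratio between libraries does not depend on them. *OPA1*, the inner membrane fusion GTPase, had 7.76 and 8.19 scaled RPKM in NC and 10.3 and 11.7 in si-circZFR. Its log2FC was 0.42 (SE 0.16, limma FDR 0.208), and 0.28 with length and GC content corrected for. Its ratio to *MFN2* was 0.401 and 0.385 in NC and 0.810 and 0.904 in si-circZFR. The fission genes were lower or overlapped. *DNM1L*, the GTPase that constricts the organelle, had 16.3 and 14.7 against 13.03 and 13.3. Its receptor *MFF* (chromosome 2, 227325151 to 227357833), the highest of the role, had 55.3 and 55.8 against 49.4 and 36.02, with a log2FC of -0.39 (SE 0.20, limma FDR 0.316) that was -0.17 without si-circZFR 2 and -0.61 without si-circZFR 1. *FIS1*, another adaptor, overlapped between groups.

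**Figure D4:**
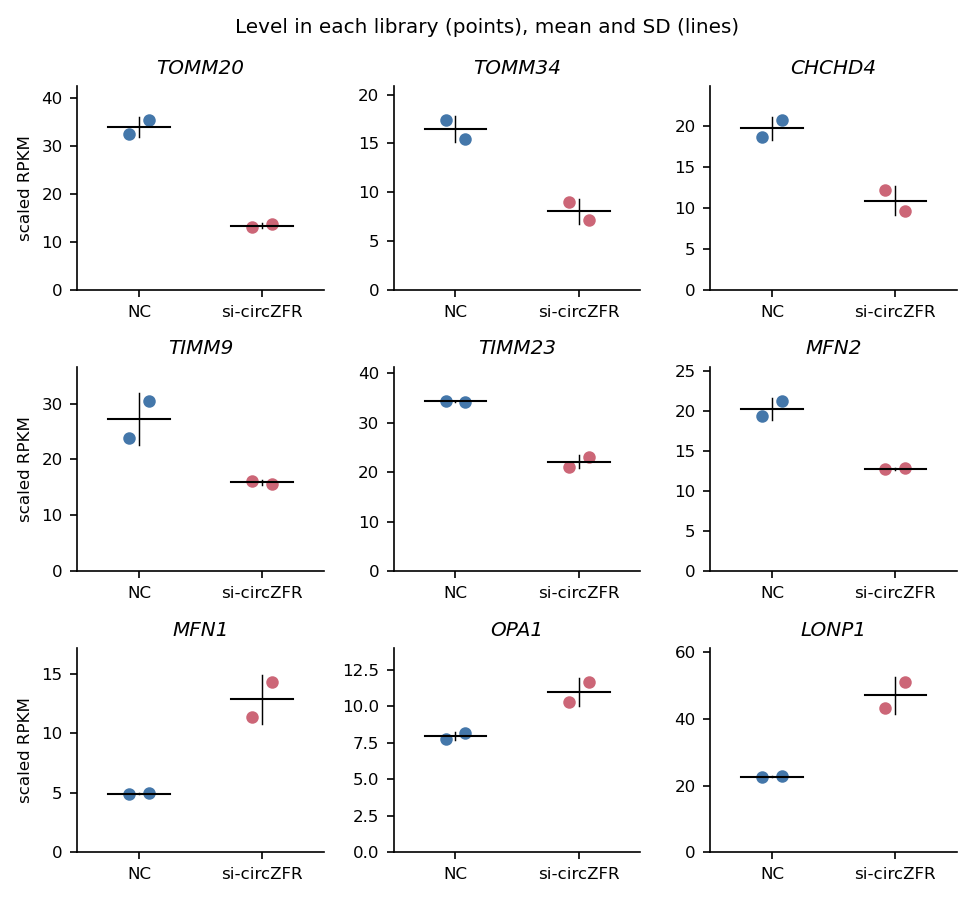
Scaled RPKM in each library (points) for 9 genes, with the mean and SD of the 2 libraries of each group as lines; each vertical axis starts at 0. The si-circZFR libraries lie below the NC libraries for TOMM20, TOMM34, CHCHD4, TIMM9, TIMM23 and MFN2, and above them for MFN1, OPA1 and LONP1.

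The 3 outer membrane channel genes encode VDAC proteins, which let metabolites pass. *VDAC1* (chromosome 5, 133971871 to 134004975, minus strand) had 79.3 and 105.9 scaled RPKM in the NC libraries and 67.6 and 56.6 in the si-circZFR libraries, with a log2FC of -0.56 (SE 0.22, limma FDR 0.215) that was -0.35 without NC 2. *VDAC3* had 67.7 and 87.2 against 56.9 and 55.3, with a log2FC of -0.45 that was -0.27 without NC 2. *VDAC2*, by contrast, had 31.7 and 43.2 against 36.5 and 35.0 and overlapped. Relative to *VDAC2* in the same library, *VDAC1* went from 2.50 and 2.45 to 1.85 and 1.62, and *VDAC3* from 2.14 and 2.02 to 1.56 and 1.58.

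**Figure D5:**
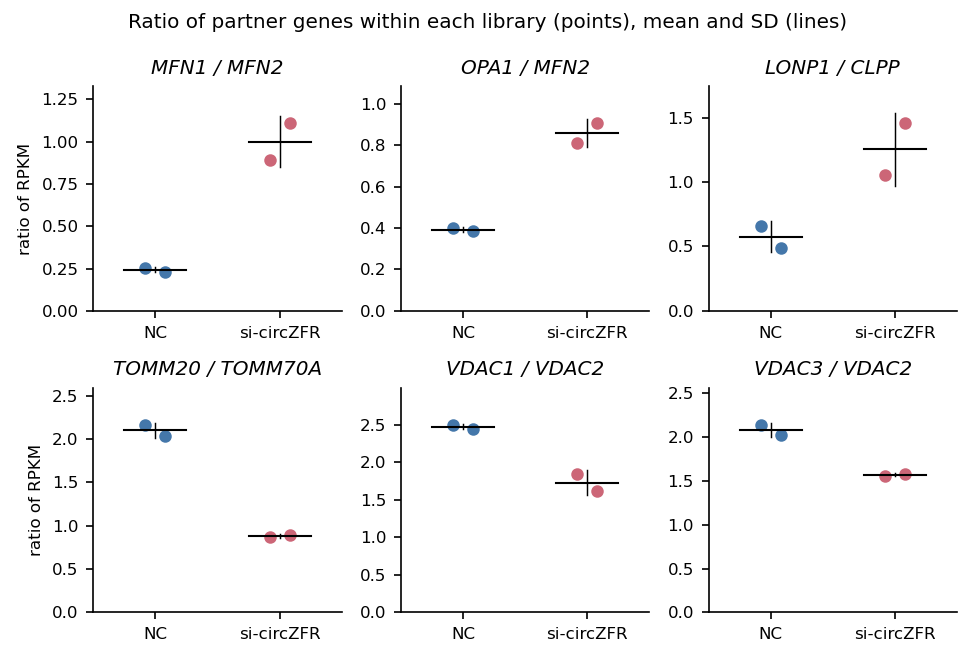
Ratio of the RPKM values of 2 genes within each library (points), with the mean and SD of the 2 libraries of each group as lines; each vertical axis starts at 0. MFN1 over MFN2 lies at 0.233 and 0.254 in NC and at 0.895 and 1.11 in si-circZFR, and TOMM20 over TOMM70A goes from above 2 to below 1.

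Of the 6 genes of mitochondrial DNA upkeep, 3 lay below and *POLRMT* above, with a median of -0.24. *TFB2M* (chromosome 1, 246540561 to 246566261, minus strand), the factor that opens mitochondrial promoters, had 14.3 and 13.97 scaled RPKM in the NC libraries and 9.13 and 9.24 in the si-circZFR libraries. The libraries of each group were close together, with a log2FC of -0.57 (SE 0.15, limma FDR 0.125) that was -0.59 to -0.56 with single libraries left out. *TFAM*, which packages the genome and activates its promoters, had 8.19 and 10.5 against 5.72 and 6.40, with a log2FC of -0.54 (SE 0.18, limma FDR 0.176). *SSBP1* (chromosome 7, 141738334 to 141787922), the single-strand binding protein, had 49.9 and 50.7 against 38.4 and 33.0, with a log2FC of -0.49 (SE 0.16, limma FDR 0.178) that was -0.27 with length and GC content corrected for. The polymerases lay the other way or overlapped. *POLRMT*, the mitochondrial RNA polymerase, had 22.8 and 23.1 against 26.1 and 31.6, with a log2FC of 0.31 (SE 0.17, limma FDR 0.332) that was 0.18 to 0.44 with single libraries left out and -0.05 with length and GC content corrected for, and *POLG*, the DNA polymerase, had 21.3 and 17.5 against 21.1 and 22.7. *TFB1M*, a ribosomal RNA methyltransferase related to *TFB2M*, was low in every library, from 1.46 to 2.04.

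A further 71 genes of the same processes were listed, of which 69 were tested. Their median log2FC was -0.08, 45 of the 69 had a log2FC below 0 (65.2%), 17 lay below (24.6%) and 9 above (13.04%), against 49.4%, 28.1% and 28.1% of all genes tested. None passed by limma and 0 by limma-voom on recovered reads, and at an unadjusted p under 0.05, 3 were lower (4.35%, against 11.5%) and 2 higher (2.90%, against 10.1%), shares below those of all genes tested. *PLD6*, a mitochondrial surface phospholipase of fusion, had 5.62 and 5.03 scaled RPKM in NC and 2.88 and 3.07 in si-circZFR, with a log2FC of -0.67 (SE 0.16, limma FDR 0.119). *STOML2*, an inner membrane scaffold related to the prohibitins, had 124.4 and 160.7 against 79.7 and 81.3, with a log2FC of -0.81 (SE 0.20, limma FDR 0.121). *SLIRP*, a stabilizer of mitochondrial mRNA, had 112.0 and 160.9 against 90.3 and 72.7, with a log2FC of -0.72 that was -0.46 without NC 2 and -0.28 with length and GC content corrected for. On the higher side, *TOP1MT*, the mitochondrial topoisomerase, had 9.35 and 9.01 against 12.99 and 14.7, and *AFG3L2*, an ATP-dependent protease of the inner membrane, had 9.56 and 10.9 against 13.1 and 17.8, with a log2FC of 0.54 that was 0.33 without si-circZFR 2. By role, the medians were -0.04 for 17 other import genes, 0.01 for 13 other proteases, -0.24 for 8 other cristae genes, -0.21 for 15 other dynamics genes and -0.03 for 16 other genes of mitochondrial DNA upkeep.

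Several of the 47 genes have near copies among the listed genes, and how the authors' counting shared reads between copies is not given in the sources used here, so these levels are uncertain. *VDAC1P1* had 584, 722, 455 and 441 reads in the 4 libraries, NC first, and *VDAC1P2* had 177, 175, 85 and 94, both in the direction of *VDAC1* itself. *CORO7-PAM16*, a readthrough that overlaps *PAM16*, had 298, 323, 343 and 361 reads, more than the 130, 101, 95 and 102 of *PAM16*, so the value of that gene is particularly unsure. *TIMM23B*, a near copy of *TIMM23*, had 66, 146, 103 and 79 reads against 545, 536, 328 and 382. *CHCHD2P2* and *CHCHD2P6* had 84 and 63 reads in NC 1 and 135 and 116 in NC 2, and so stood highest in NC 2 as *CHCHD2* did. Of the copies of *TOMM20*, *TOMM20L* had 1 read in all, and no listed gene was named as a copy of *MFN1* or *LONP1*.

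The siRNA letters were looked for in the 3′UTRs. CTTACGT, the DNA form of the 7 bases in capitals in the siRNA, was found in the 3′UTR of *OPA1* alone, 1 of the 47 genes (2.13%, against 2.71% of 11170 genes tested with a 3′UTR). CTGACTC, 7 bases that an earlier analysis of these data had picked out because genes with them in the 3′UTR were lower in si-circZFR, lay in 2 of the 47, *TIMM22* and *TIMM50* (4.26%, against 11.3%). These sites are shown with 11 bases on either side and the 7 bases in capitals, on the plus strand of GRCh38, with the 7 bases at chr17:1003056-1003062 and chr19:39493720-39493726.

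TIMM22: tattcacgccaCTGACTCtctcaaaggga

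TIMM50: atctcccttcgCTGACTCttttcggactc

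The log2FC of these 2 genes was -0.27 and -0.43 with all libraries but -0.0091 and -0.22 without NC 2, and their median of -0.35 compares with -0.38 for the 45 genes without the letters. Neither 7-base run lay in the 3′UTR of *TOMM20*, *TOMM34*, *MFN1*, *MFN2* or *LONP1*.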

How the data were processed

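RNA-seq was analysed for 4 libraries, 2 of each group, with groups and replicate numbers taken from the labels. Libraries were made with an Ion Proton RNA-Seq kit. Per the methods, the authors removed adaptors and low-quality reads, aligned to hg38, removed batch effects by SVA and used edgeR; the submitters' processing notes name GRCh37. The aligner, counter, annotation and use of strand are not given in the sources used here. The authors deposited RPKM values per gene, with no coordinates; positions came from GENCODE v44 on GRCh38 and promoters from RefSeq.

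RPKM values were divided by TMM factors computed here (30% of log ratios and 5% of levels trimmed, unweighted). A gene entered the test with a value of 1 RPKM or more in 2 or more libraries. The test was limma with a trended prior on log2(scaled RPKM + 1), which understates the changes of low genes. FDR is the Benjamini-Hochberg adjusted p over all 13885 genes tested, and a gene passed at FDR under 0.05 with |log2FC| over 1. Whole reads were recovered from the RPKM values (tolerance 0.02) for 24282 of 24289 genes above 0 (99.97%), with the gene length left free, and served for depth and limma-voom. The smallest length that gave whole reads in all 4 libraries was kept. Lengths and reads may therefore be too low by a whole factor, and the share recovered does not show that they are right. The totals set the counting error only, and each mean rests on 2 libraries. On simulated data for 2 against 2 libraries and 13885 genes, limma called 178 of 200 changed genes and 29 unchanged ones.

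The genes, their roles and the other lists were chosen with earlier results of these data known. The result for 1 of the cell line markers is not reported here. Genes given in full were, in each role, those with the smallest p, the largest |log2FC| and the highest mean, the 10 with the smallest p of all, 5 further pathway genes and near copies; other genes given with values were chosen after their values were seen. Alternatives covered scaling, filters, pseudocount, prior, replicate block, length and GC content, limma-voom and leaving out each library. The work used matplotlib 3.10.9, scipy 1.17.1, pandas 2.3.3 and numpy 2.4.6 under Python 3.11.15, and limma 3.58.1 under R 4.3.3.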

Additional observations from a re-analysis of the deposited data

How the results depend on the processing

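The number of genes that passed, 8 of all genes tested and 0 of the 47, depended on the settings. It was 0 for all genes without a filter on low values, 175 with a filter of 5 RPKM in 2 libraries, 2 with a pseudocount of 0.1, 1 without a trend in the prior variance, 113 after the length and GC correction, 278 by limma-voom on recovered reads and 0 to 717 with single libraries left out; the 717 came without NC 1. Of the 47 genes, 3 passed with the filter of 5 RPKM (*TOMM20*, *MFN1* and *LONP1*), 2 after the length and GC correction (*TOMM20* and *MFN1*), 4 by limma-voom, and 0 to 4 with single libraries left out, the 4 without NC 1 being *TOMM20*, *MFN1*, *TOMM5* and *TOMM7*. With the replicate number as a block, 63 genes passed and 0 of the 47; the numbers were not shown to pair the libraries, since deviations of same-numbered libraries had r = 0.0694 across genes and there are only 2 pairs. The 4 genes above both NC libraries became 7 without scaling and 8 after the length and GC correction, and the 27 genes below became 22 and 23. With single libraries left out, 4 to 18 lay above and 27 to 37 below. A group then held a single library, so that genes separate more easily. These counts were not set beside the shares of all genes tested under the same settings. The median of the 47 genes was -0.21 both without scaling, where that of all genes was 0.15, and after the length and GC correction, and -0.50 to -0.25 with single libraries left out. The median of the further pathway genes was 0.070 without scaling and -0.22 to 0.00067 with single libraries left out. *ZFR* had a log2FC of -2.47 to -2.19 with single libraries left out. It no longer passed with a pseudocount of 0.1 (-2.52, FDR = 0.0506), without a filter (-2.33, FDR = 0.226), without the trend (-2.33, FDR = 0.0568) or with any of NC 2, si-circZFR 1 and si-circZFR 2 left out (FDR = 0.177 to 0.625 by limma). *CLPP* turned to 0.10 without scaling and 0.20 after the length and GC correction, and -0.29 to 0.14 with single libraries left out (above 0 without NC 2 or si-circZFR 2), and *CHCHD2* to 0.16 after the length and GC correction and -0.74 to 0.28 with single libraries left out (above 0 without NC 2). The causes were not tested. Of the 47 genes, 33 kept the sign of their log2FC with every library left out in turn and 29 under all the alternatives run, *TOMM20*, *TOMM34*, *MFN1*, *MFN2*, *OPA1* and *LONP1* among them.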
